A study of Mus musculus with 3 samples.

Results

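The interleukin-1 (IL-1) family and inflammasome genes followed here are Il1a, Il1b, Il18, Il33, Il1rn, Il1r1, Il1r2, Il1rl1, Casp1 and Nlrp3, 10 genes chosen by name. Their probes were taken where the array's annotation gives exactly 1 gene and that gene is one of the 10, under its current or an older symbol. This found 12 probes for 9 genes among 19532 named genes on the array, and Il1rl1, the receptor of IL-33, was matched by none. Of the 9 genes, Il1a, Il1rn and Il1r2 had 2 probes each and the other 6 had 1.

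RNA came from hearts of C57BL/6 mice, compared on 2-colour microarrays, and the series describes 6 groups of 8 animals. There were 3 contrasts. The first sets mice given esmolol, a beta-blocker with a brief action that favours the beta-1 receptor of the heart, infused at 20 mg/kg/h through a jugular catheter, against untreated mice without sepsis. The second sets esmolol against no treatment in mice injected intraperitoneally with lipopolysaccharide (LPS), a bacterial cell wall component. The third sets esmolol against no treatment in mice whose cecum was ligated and perforated (CLP), which causes sepsis from the abdomen. The sources used here do not give age, sex or the time of sampling, nor whether RNA was pooled. LPS injection models the response to 1 bacterial product and not an infection, and no contrast sets septic against non-septic hearts, so the response of these genes to sepsis itself cannot be read from these data. The question of the contrasts was how the drug alters gene expression in the heart muscle in each setting.

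IL-1 alpha and IL-1 beta are alarm cytokines that signal through the receptor encoded by Il1r1. The antagonist encoded by Il1rn occupies that receptor without signalling, and the decoy receptor encoded by Il1r2 binds the cytokines without signalling. IL-1 beta and IL-18 are made as inactive precursors, which caspase-1 cleaves once a sensor such as NLRP3 has assembled an inflammasome. IL-33 is a nuclear alarmin of stromal cells. In the heart, IL-1 is known as a depressant of contraction and as a product of macrophages, neutrophils and injured stromal cells. Transcript ratios say nothing of cleavage or release of these proteins.

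Each deposited value is a log ratio, read as log2, that merges 4 replicates with dye swaps, so no gene has an error over animals and no difference was tested. The only error within the table is that between probes of 1 gene, with a pooled SD on the log2 scale of 0.11 for non-septic, 0.24 for LPS and 0.10 for CLP hearts. Values above 0 mean higher with esmolol. This direction is likely in the non-septic and LPS contrasts, where titles and design text both put treated hearts first. In the CLP contrast the title puts the untreated hearts first, and the sign was turned accordingly, whereas the design text makes no exception for CLP. Its direction is therefore not settled, and every CLP value below is given in the titled direction. If the table does not follow the title, all CLP signs reverse together, but differences in sign between genes within CLP hearts stay. In whole heart tissue, fewer cells of a type and less RNA per cell cannot be told apart. The ratios hold no expression level, so the tissue label could not be checked by level. Of 8 listed cardiomyocyte markers, 4 had values in LPS and in CLP hearts once the single value that recurs in each column was left out.

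Across the family, non-septic hearts showed small ratios, LPS hearts a lower antagonist transcript, and CLP hearts higher Il1a, Il1b and antagonist transcripts in the titled direction. The decoy receptor gene lay below 0 in CLP hearts without reaching 1.5-fold. Genes were counted from 1.5-fold on, 0.585 on the log2 scale. In non-septic hearts 0 of 8 measured members reached this, where 0.460% of all genes did. In LPS hearts 1 of 9 did, Il1rn, which was lower, beside 4.32% of all genes in either direction and 2.26% lower. At these shares, a count of 0 in 8 or of 1 in 9 does not set the members apart. In CLP hearts 3 of 8 reached 1.5-fold, Il1a, Il1b and Il1rn, all higher. Of all genes there, 0.952% did in either direction, 0.819% higher and 0.133% lower. The members had medians of 0.03 in non-septic, -0.08 in LPS and 0.27 in CLP hearts, against medians of all genes of 0.001, 0.0001 and -0.005. Without Il1a, whose probes had opposite signs in LPS hearts, the CLP median was 0.088. The median of 8 lies midway between Il18 at 0.088 and Il1r1 at 0.46. Leaving out any 1 gene above it, and not Il1a in particular, thus gives this lower value. The base of the logarithm is not stated, and if the values were natural logarithms, 5 of 8 members would pass 1.5-fold in CLP hearts and 1 of 9 in LPS hearts. The median size of the ratio, regardless of sign, was 0.05, 0.12 and 0.48 for the members, against 0.07, 0.16 and 0.06 for all genes. By this median the members lay farther from 0 than all genes in CLP hearts, and nearer to 0 in the other contrasts.

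**Figure D1:**
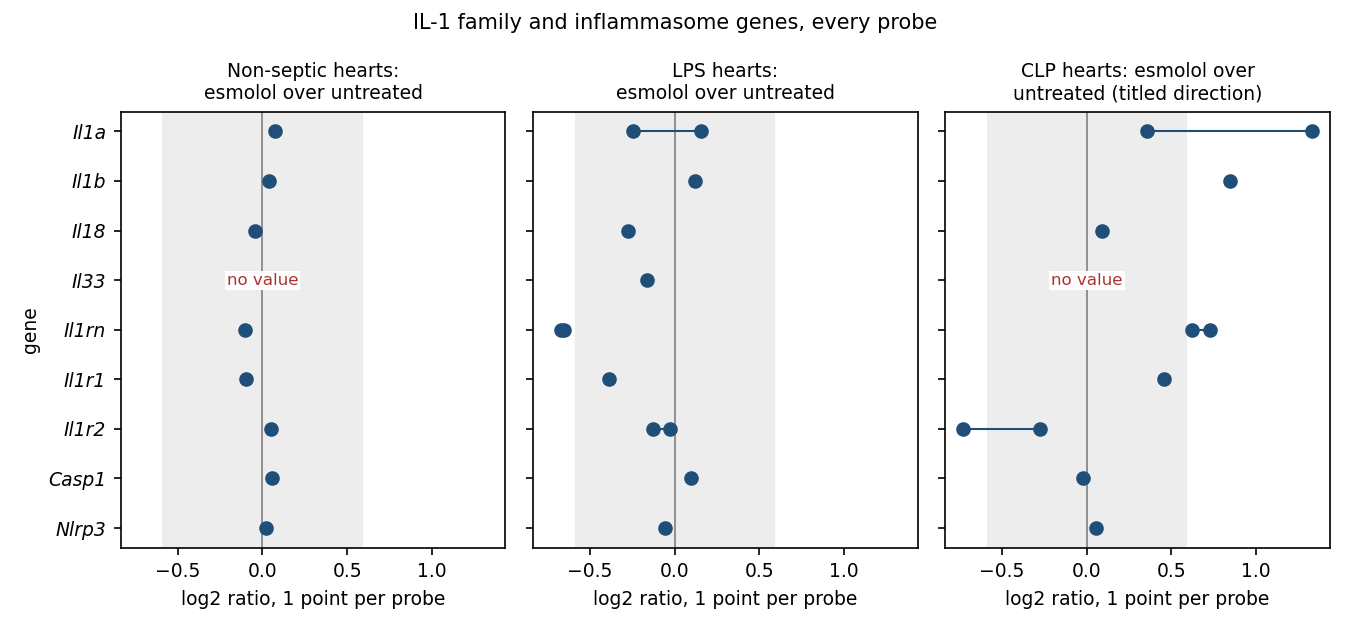
Log2 ratio of every probe of the 9 measured genes (rows) in the 3 contrasts (panels); a line joins probes of 1 gene and the grey band is under 1.5-fold. In non-septic hearts all points sit between -0.11 and 0.07, in LPS hearts both Il1rn probes lie left of the band, and in CLP hearts Il1b, both Il1rn probes and 1 Il1a probe lie right of it while 1 Il1r2 probe lies left.

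The 2 IL-1 ligand genes were near 0 in non-septic and LPS hearts and among the highest genes in CLP hearts. Il1b had ratios of 0.04 in non-septic, 0.12 in LPS and 0.84 in CLP hearts from its 1 probe. In CLP hearts this is 1.79-fold higher and rank 63 from the highest of 17339 genes. Il1a, with 2 probes, was at 0.07 in non-septic hearts, where 1 probe was blank. Its probes were at -0.25 and 0.16 in LPS hearts and at 0.36 and 1.33 in CLP hearts. Both Il1a probes were thus above 0 in CLP hearts, but their SD of 0.69 was several times the pooled SD between probes, and 1 of them alone passed 1.5-fold. Their median of 0.84 was the same to 2 decimals as that of Il1b, and ranked 62. Il1a and Il1b are neighbouring members of the family on mouse chromosome 2. The 250 bases before their start sites are shown because the CLP median of Il1a was this close to Il1b, although neither Il1a probe alone was. They are RefSeq sequences of assembly GRCm38.p6, both on the minus strand, at chr2:129309973-129310222 for Il1a and chr2:129371140-129371389 for Il1b, with motif matches in capitals:
Il1a: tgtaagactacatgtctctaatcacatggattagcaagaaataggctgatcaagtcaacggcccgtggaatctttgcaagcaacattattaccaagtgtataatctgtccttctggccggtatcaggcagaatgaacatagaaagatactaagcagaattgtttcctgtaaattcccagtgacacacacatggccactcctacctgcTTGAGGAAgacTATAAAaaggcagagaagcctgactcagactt
Il1b: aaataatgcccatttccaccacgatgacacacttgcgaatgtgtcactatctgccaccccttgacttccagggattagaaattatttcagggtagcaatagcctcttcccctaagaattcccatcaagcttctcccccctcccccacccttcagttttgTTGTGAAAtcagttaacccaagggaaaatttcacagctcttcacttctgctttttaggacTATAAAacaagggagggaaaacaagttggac
Motifs were searched on both strands in windows of 250 bases before to 50 bases after the start. Both windows held TATAAA, the TATA box letters, starting 32 bases before the start in Il1a and 31 before it in Il1b, where 13.6% of 32851 RefSeq windows of that length held it anywhere. Both also held TTNNGNAA, a form of the C/EBP site, which 40.7% of windows held. In Il1a this match overlapped GAGGAA, the core of a PU.1 site, found in 28.3% of windows. Neither held GGNNNTTCC, a form of the NF-kB site found in 18.5%, or GAAANNGAA, an interferon response form found in 8.56%. A match is a description of letters and no evidence of binding.

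Il18 and Il33, the other 2 ligand genes, stayed under 1.5-fold wherever they were measured. Il18, whose product is activated by the same caspase as IL-1 beta, was at -0.04 in non-septic, -0.28 in LPS and 0.09 in CLP hearts. In CLP hearts it lay 0.76 below Il1b on the log2 scale, so these 2 caspase-1 substrates did not have equal ratios. Il33 was at -0.16 in LPS hearts, and its probe was blank for non-septic and for CLP hearts. As Il1rl1 was also not measured, the IL-33 branch is described by this 1 value.

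Il1rn, which encodes the secreted IL-1 receptor antagonist, had the smallest SD between probes of the 3 members with 2 probes in both sepsis models, and was the only member past 1.5-fold in both. In LPS hearts its probes were at -0.66 and -0.67, and in CLP hearts at 0.73 and 0.62. These are medians of -0.66 ± 0.01 and 0.68 ± 0.07 (SD between probes, n = 2 probes), which are 1.58-fold lower and 1.60-fold higher. Both probes lay on 1 side in each model, and the sides were opposite in the titled direction and the same if the CLP sign is not turned. In non-septic hearts 1 probe had a value, -0.11. Il1rn ranked 281 from the lowest of 17733 genes in LPS hearts and 96 from the highest in CLP hearts. The LPS call rests on the scale of that column, whose SD over genes was 0.28 against 0.14 for non-septic and 0.16 for CLP hearts. With the columns scaled to the same SD, 0 of 9 members were past 1.5-fold in LPS hearts. RefSeq lists 3 start sites for Il1rn, and the upstream bases of the last one, chr2:24345121-24345370 on the plus strand of GRCm38.p6, are shown because they differ from those of the ligand genes in the motifs found:
Il1rn: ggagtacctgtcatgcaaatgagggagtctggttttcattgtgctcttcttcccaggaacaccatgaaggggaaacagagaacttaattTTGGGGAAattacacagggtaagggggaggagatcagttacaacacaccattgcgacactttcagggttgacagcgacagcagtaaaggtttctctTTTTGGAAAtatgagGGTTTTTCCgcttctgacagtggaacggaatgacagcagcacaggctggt
Its capitals mark 3 matches of TTNNGNAA, of which the later 2 overlap, and 1 of GGNNNTTCC that starts 50 bases before the start. A TATAAA match on the minus strand lay after the start and is not printed. The window of the first Il1rn start site held 1 match of GGNNNTTCC and 0 of TTNNGNAA. That of the second, which overlaps the one shown, held 1 and 3. The sources used here do not say which start site the array's probes report on.

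The signalling receptor gene Il1r1 had the sign of Il1rn in all 3 contrasts at smaller size, and the decoy receptor gene Il1r2 did not. Il1r1 was at -0.10 in non-septic, -0.39 in LPS and 0.46 in CLP hearts. It stayed under 1.5-fold, although only 1.73% of genes lay as far or farther from 0 in CLP hearts. Il1r2 was at 0.05 in non-septic hearts from 1 probe, at -0.02 and -0.13 in LPS hearts, and at -0.28 and -0.73 in CLP hearts. In CLP hearts 1 of its probes passed 1.5-fold and their median, -0.50 ± 0.32 (SD between probes, n = 2 probes), did not. That median was nevertheless rank 39 from the lowest of 17339 genes. Il1r2 therefore lay 0.96 below Il1r1 and 1.35 below Il1b on the log2 scale in CLP hearts, a difference in sign that the turn of the column cannot remove. In LPS hearts the same differences were 0.31 above Il1r1 and 0.20 below Il1b. The upstream bases of Il1r2 are shown as those of the member opposite to the ligands, from chr1:40085843-40086092 on the plus strand of GRCm38.p6:
Il1r2: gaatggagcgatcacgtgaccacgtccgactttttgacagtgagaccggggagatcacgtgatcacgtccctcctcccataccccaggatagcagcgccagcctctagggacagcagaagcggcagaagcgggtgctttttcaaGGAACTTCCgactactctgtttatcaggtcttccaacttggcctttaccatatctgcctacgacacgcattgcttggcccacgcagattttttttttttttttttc
The capitals mark its single match, GGNNNTTCC, read on both strands, and no TATAAA, TTNNGNAA or GAGGAA was found in the window.

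The inflammasome genes had ratios near 0 in every contrast. Casp1, the protease that matures IL-1 beta and IL-18, was at 0.06 in non-septic, 0.10 in LPS and -0.02 in CLP hearts. Nlrp3, the sensor, was at 0.02, -0.06 and 0.05 in the same order. At least 55.0% of all genes lay as far or farther from 0 as either gene in each contrast. In CLP hearts the ligand Il1b thus stood at 0.84 while Casp1 and Nlrp3 stood at -0.02 and 0.05. Of 24 further inflammasome genes on the list, 17 were measured in non-septic, 19 in LPS and 17 in CLP hearts, with medians of 0.02, -0.06 and -0.02. In each contrast 0 of them reached 1.5-fold, beside 0.460%, 4.32% and 0.952% of all genes. At shares this low, a count of 0 in a list of this size does not set these genes apart. Without probes on the recurring value of each column, 16, 17 and 15 were measured, with medians of 0.02, -0.09 and -0.004. The lowest in LPS hearts was Casp4 at -0.57, just under 1.5-fold, which encodes the mouse caspase that binds LPS inside cells. The highest in non-septic hearts was Txnip at 0.54 ± 0.01 (SD between probes, n = 2 probes), a redox protein reported to bind NLRP3. In LPS and CLP hearts both Txnip probes carried the single value that recurs at 526 and 538 probes of those columns, so its ratios there, -0.04 and -0.02, were not read as measured ratios. None of the 31 values of the members was such a recurring value.

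The ratios of the antagonist and of the ligands of IL-1 lay far apart in LPS hearts and close together in CLP hearts. Il1rn lay 0.79 below Il1b on the log2 scale in LPS hearts and 0.17 below it in CLP hearts. In non-septic hearts it lay 0.15 below. Against Il1a the same differences were 0.62, 0.17 and 0.18 in LPS, CLP and non-septic hearts. The differences between contrasts were not tested. The pooled SD between probes of 1 gene in LPS hearts was 0.24, but it covers neither animals nor arrays and is no error for these differences. In CLP hearts the closeness to Il1a rests on the median of probes at 0.36 and 1.33, with both Il1rn probes between them.

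Beyond the 10 genes, other members of the IL-1 pathway were under 1.5-fold with 1 exception. Of all genes, 0.460% in non-septic, 4.32% in LPS and 0.952% in CLP hearts were past it. At shares this low, counts of 0 in lists of this size do not set these genes apart. Of 6 further ligand and binding protein genes 4 were measured in each contrast, with medians of -0.15, -0.35 and 0.01. Il18bp, which encodes the soluble inhibitor of IL-18, was lowest in LPS hearts at -0.58 ± 0.13 and highest in CLP hearts at 0.13 ± 0.08 (SD between probes, n = 2 probes). Of 7 further receptor genes 6, 7 and 6 were measured, with medians of 0.03, -0.07 and -0.04 and 0 past 1.5-fold. Among 17 measured genes of IL-1 receptor signalling, of 20 listed, 1 was past 1.5-fold, in LPS hearts. A count of 1 in 17 is near the 4.32% of all genes there. The gene was Irak3, an inhibitory kinase-like protein of the pathway, at -0.65 ± 0.08 in LPS hearts (SD between probes, n = 3 probes). It was also the highest of that list in CLP hearts, at 0.49 ± 0.01, and stood at 0.09 ± 0.05 in non-septic hearts. Irak3 and Il1rn, both inhibitors of IL-1 signalling, had the same order of signs in the sepsis models. This order was not particular to inhibitors. Of the signalling list, 15 of 17 genes lay below 0 in LPS hearts and 11 of 17 above 0 in CLP hearts. The signalling receptor gene Il1r1 shared the order, and the decoy receptor gene Il1r2 did not. The medians of the signalling list were 0.003, -0.16 and 0.05.

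Genes that IL-1 is known to induce had medians farther from 0 than the IL-1 family and inflammasome genes in each contrast. Many of them respond to other inflammatory signals as well. Of 17 measured among 18 listed, 4 were lower and 0 higher by 1.5-fold in non-septic hearts, 10 lower and 0 higher in LPS hearts, and 0 lower and 9 higher in CLP hearts. Of all genes, 43 of 17814 were lower in non-septic, 401 of 17733 lower in LPS and 142 of 17339 higher in CLP hearts. The medians of the induced genes were -0.25, -0.82 and 0.59. In CLP hearts Il1a and Il1b, both at 0.84, lay above that median. In non-septic hearts Cxcl1, a neutrophil chemokine, was at -1.80 while Il1a and Il1b lay at 0.07 and 0.04. In LPS hearts Il6, an acute phase cytokine, was lowest at -1.55, again with Il1b at 0.12. In CLP hearts Sele, the endothelial selectin, was highest at 2.54 and Mmp3, a matrix protease, lowest at 0.05. Ccl2, a monocyte chemokine, was at 0.5850 in CLP hearts, on the threshold. This list was written with earlier results of these data known, so its direction is no independent evidence.

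**Figure D2:**
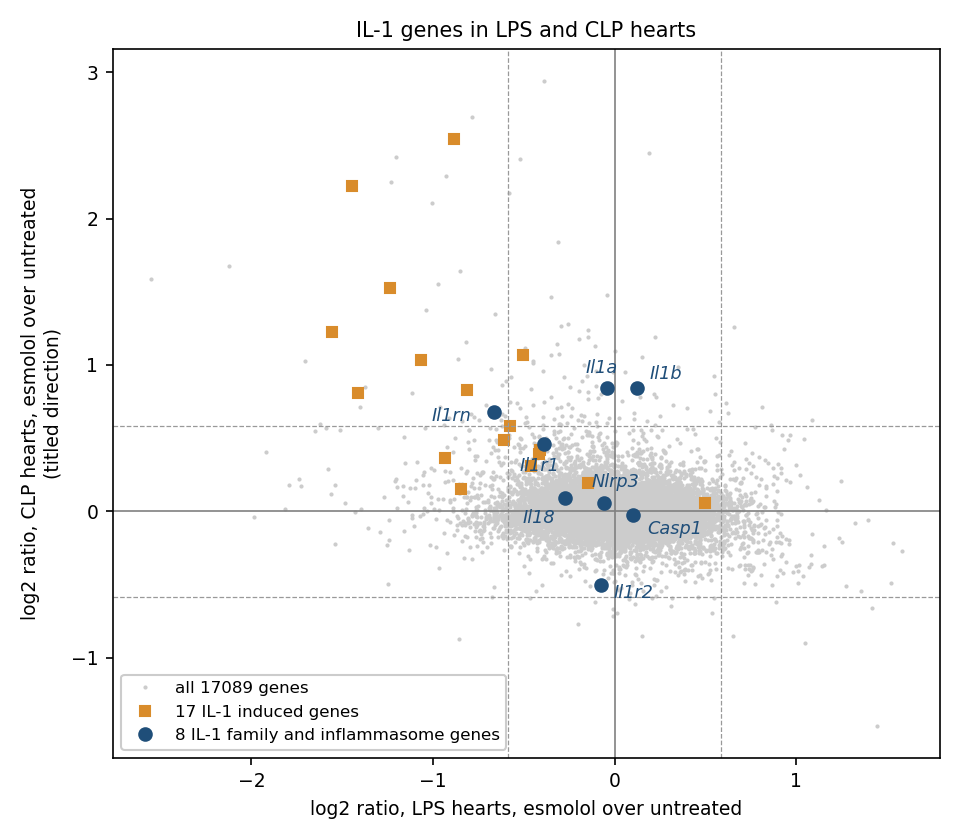
Log2 ratio in CLP hearts (vertical, titled direction) against LPS hearts (horizontal) for 17089 genes (grey), 17 IL-1 induced genes (orange squares) and 8 IL-1 family and inflammasome genes (blue points); dashed lines mark 1.5-fold. Il1rn lies at upper left among the induced genes, Il1a and Il1b lie above the cloud near an LPS ratio of 0, Il1r2 lies below it, and Casp1 and Nlrp3 lie inside it.

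Some markers of cells that express these genes also had ratios away from 0 in CLP hearts, while the medians of several marker lists lay near 0. Il1r2 is carried by neutrophils, and all 8 measured of 10 listed neutrophil markers lay below 0 there, with a median of -0.26 and a range from -0.85 at Retnlg to -0.005 at Cxcr2. Of these, 2 were lower by 1.5-fold, Retnlg and S100a8 (-0.59), beside 0.133% of all genes. In LPS hearts 9 neutrophil markers had a median of 0.04, with 4 below 0, and in non-septic hearts a median of 0.10. Macrophages are a source of IL-1 beta and of its antagonist, and their 8 measured markers had a median of 0.22 in CLP hearts, from -0.10 at Cd163 to 0.92 at Adgre1. They were split in sign there, with 5 above 0 and 3 below. Past 1.5-fold, 2 were higher, Adgre1 and Lyz2 (0.74), beside 0.819% of all genes, and 0 were lower. In LPS hearts 9 macrophage markers had a median of 0.27, with 3 higher by 1.5-fold and 0 lower. Of all genes, 365 of 17733 were higher by 1.5-fold there. Atrial chamber markers, 6 of 6 measured, had medians of 0.54 in non-septic, -0.88 in LPS and 1.90 in CLP hearts. In CLP hearts 5 of 6 were higher by 1.5-fold, beside 0.819% of all genes. Fibroblasts are among the cells that carry Il1r1, and their markers had medians of 0.04, 0.18 and 0.18. Of 7 fibroblast markers 1 was higher by 1.5-fold in LPS and in CLP hearts, Col3a1 at 0.81 and 0.71, and 0 were lower. Of all genes, 365 of 17733 in LPS and 0.819% in CLP hearts were higher. Mast cell markers had medians of -0.06, -0.12 and 0.07, lymphocyte markers 0.02, -0.21 and 0.001, endothelial markers 0.01, 0.04 and -0.06, and adipocyte markers -0.07, -0.24 and 0.04. Of 7 measured mast cell markers 1 was lower by 1.5-fold in LPS hearts, Hdc at -0.80, beside 2.26% of all genes. Of 6 adipocyte markers 2 were higher by 1.5-fold in CLP hearts, Ucp1 (2.40) and Adipoq (0.89), beside the same 0.819% of all genes. Cardiomyocyte markers had medians of 0.03 in LPS and -0.05 in CLP hearts over the 4 genes left without the recurring value. The part of cell content or of the sampled chamber in the ratios of the IL-1 genes was not tested.

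**Figure D3:**
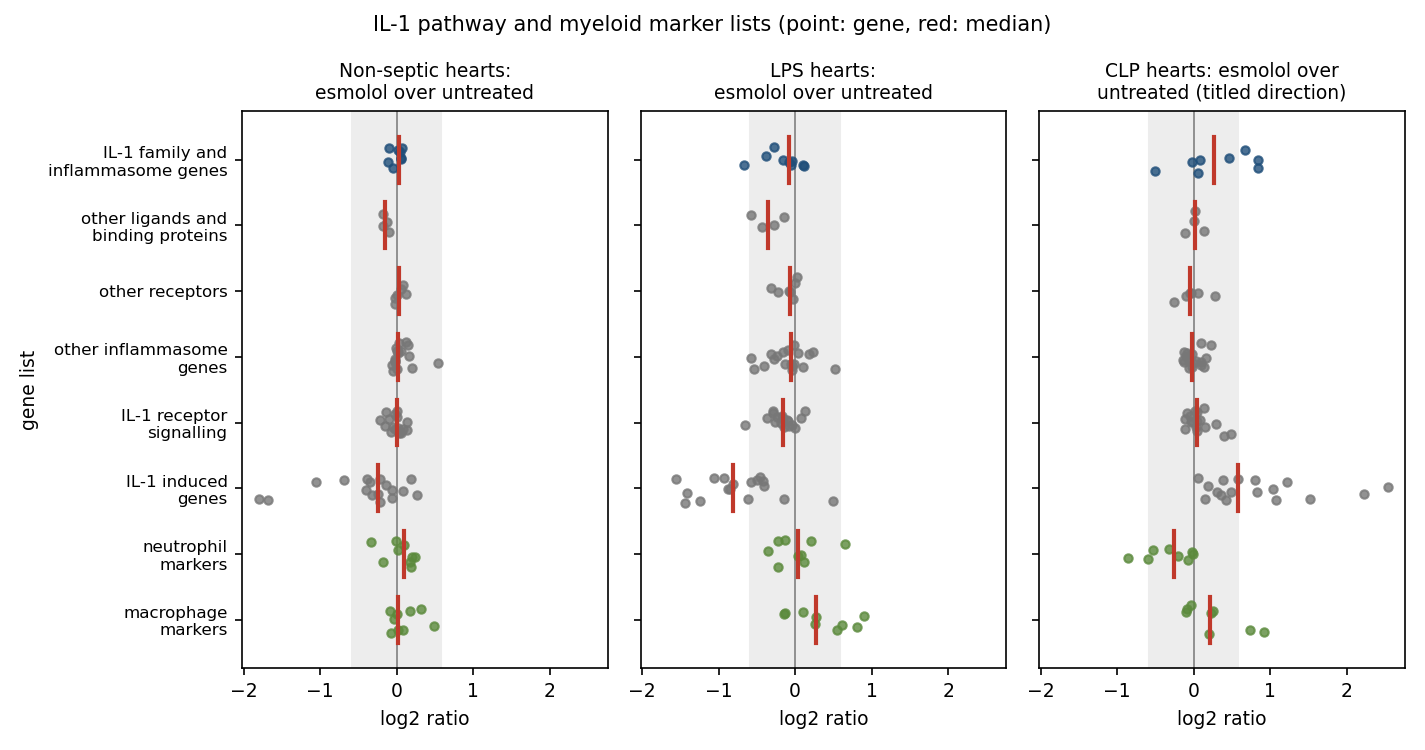
Log2 ratio of each gene (points) of 8 lists (rows) in the 3 contrasts (panels), with each list's median in red and the grey band under 1.5-fold; points are spread vertically at random. The rows are the IL-1 family and inflammasome genes, the other ligands, receptors, inflammasome and signalling genes, the IL-1 induced genes, and neutrophil and macrophage markers. The IL-1 induced genes have the median farthest from 0 of these 8 rows in all 3 panels, while the atrial markers, which are not drawn, have medians farther from 0, and in the CLP panel the neutrophil markers lie left of 0 while the medians of the IL-1 genes and of the macrophage markers lie right of it.

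The genes whose 3 ratios were most like those of Il1a, Il1b and Il1rn were sought among 15411 other genes by Euclidean distance. For Il1b they were Slc11a1 (distance 0.10), a metal transporter of phagocytes, Il1a (0.17) and the podoplanin gene Pdpn (0.22). For Il1a they were Upk1b (0.11), Sytl2 (0.14) and Il1b (0.17). For Il1rn they were C1ra (0.06), a complement protease, Stx11 (0.10) and the homeobox gene Hoxb5 (0.11). Within a distance of 0.2 there were 2 genes for Il1b, 4 for Il1a and 10 for Il1rn. In these distances the CLP ratio of Il1a is the median of probes at 0.36 and 1.33. With 3 values per gene, such likeness is a description of these columns only.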

How the data were processed

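Mouse heart RNA was measured on 2-colour arrays in 3 contrasts. The authors deposited 1 value per probe and contrast, read here as a log2 ratio; the sources used here do not give the log base, scale, centring, background correction or normalization. Per the labels, 4 replicates with dye swaps were merged into each value. Single arrays and their intensities were not analysed here, and the number of arrays limits the precision. Of 41174 probes, 32664 carried 1 gene in the platform annotation, 45 with several genes were not used, and 8465 have no name here. Symbols were updated through gene IDs to RefSeq (GRCm38.p6) for 32524 probes. Blank values were 14.4%, 15.2% and 18.6% of probes in non-septic, LPS and CLP hearts.

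The median over a gene's probes was taken in Python 3.11.15 with pandas 2.3.3 and numpy 2.4.6, and the CLP column was multiplied by -1. Counts used a fold of 1.5 and no test. The counting steps were run on simulated data with planted shifts well past that fold. That run checks the steps and not how reliable the counts are. All members are named; of each other list a gene may be named if it was past 1.5-fold or the highest or lowest of its list, and not all of these are. Members and lists were chosen with earlier results of these data known. Promoter windows came from RefSeq, which holds 16 windows for the 10 genes. Alternatives changed the collapse of probes, the recurring value, centring, scale, CLP sign, threshold and log base.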

Additional observations from a re-analysis of the deposited data

Results flagged for a closer look

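Some genes were past 1.5-fold on opposite sides in 2 contrasts, in the titled direction of CLP. These differences were not tested, and with the CLP sign not turned they would lie on the same side. Of the IL-1 family, this held for Il1rn, at 0.68 in CLP and -0.66 in LPS hearts. Of the IL-1 induced genes, Il6 was at 1.22 in CLP and -1.55 in LPS hearts, Ptgs2, the inducible prostaglandin synthase, at 1.52 and -1.24, and Icam1, an adhesion molecule, at 0.83 and -0.82. Sele was at 2.54 in CLP and -0.88 in LPS hearts, and Tnfaip3, an inhibitor of NF-kB, at 0.80 and -1.41. Csf3, the granulocyte growth factor, was at 2.22 in CLP, -1.44 in LPS and -0.68 in non-septic hearts. Cxcl2, a neutrophil chemokine, was at 1.03 in CLP, -1.06 in LPS and -1.06 in non-septic hearts.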

How the results depend on the processing

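The number of members past 1.5-fold was 0 in non-septic hearts under every alternative run. In LPS hearts it was 1, and became 0 with columns scaled to the same SD, 0 at 2-fold, 3 at 1.2-fold and 3 if the values were log10. In CLP hearts it was 3, and became 0 at 2-fold, 5 at 1.2-fold, 5 if the values were natural logarithms and 5 if they were log10. It was 4 with columns scaled to the same SD and 4 with the probe farthest from 0, since Il1r2 passed, and with the probe nearest to 0, an alternative chosen after seeing the data, it was 2, since Il1a did not pass. The CLP median of the members was 0.27, and 0.088 over the 7 members measured in all 3 contrasts with probes of the same sign, which leaves out Il1a. With the CLP column left as deposited, that median was -0.27, Il1a was at -0.84, Il1b at -0.84 and Il1rn at -0.68. Leaving out the recurring value moved no member, and the count of 1 list, fibroblast markers in LPS hearts, became 2. It left 4 of 8 cardiomyocyte markers in LPS and in CLP hearts, with the LPS median at 0.03 in place of -0.04, and 17 of 19 further inflammasome genes in LPS and 15 of 17 in CLP hearts. No replicate could be left out. No paired analysis was possible because each contrast is 1 merged column. A ratio near 0 may hide a gene at background, since signal over background was not analysed here.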
